A study of Rattus norvegicus with 9 samples.

Results

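The Zfp genes are the rat genes whose symbol is Zfp followed by a number, and most of them encode zinc finger proteins. Of the 18629 genes in the deposited table, 267 had such a symbol, and 215 of these had at least 10 counts in each of the 9 libraries. These 215 genes were thus chosen by their symbol and by their measured counts. The 52 Zfp genes that missed it included 22 that fell short only in the Yap1 shRNA libraries, which were sequenced least deeply. Genes that were low with Yap1 shRNA were therefore more likely to be left out, and counts over the 215 genes are given below beside those over all Zfp genes that could be tested. Zfp112, Zfp819 and Zfp184 lay just inside the minimum with a lowest count of 10, and Zfp385d and Zfp575 lay just outside it with 9.

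A classical zinc finger is a short fold held by a zinc ion between cysteines and histidines, and proteins with arrays of C2H2 fingers read DNA sequence. Many carry a KRAB domain, which recruits the corepressor Trim28 and enzymes that lay down silent chromatin, and these genes lie in clusters formed by duplication. A small CCCH branch (Zfp36 and its relatives) binds AU-rich elements in messenger RNA and brings in the deadenylase complex that shortens the message's life. Other members act in ribosome assembly, splicing, the mitotic spindle or ubiquitin transfer. By the deposited domain annotation, 179 of the 215 genes had a C2H2 domain, and 58 of these also had a KRAB domain. A SCAN domain, through which such proteins pair, was annotated in 14 genes, a CCCH domain in 3 genes and a BTB domain in 2 genes, while 31 genes had no domain annotation. KRAB genes made up 27.0% of the members and 25% of the 52 Zfp genes below the minimum.

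RNA came from cultured cardiomyocytes of newborn SD (Sprague-Dawley) rats aged 1 to 2 days. Every group had 33 mM glucose with 100 nM insulin for 48 h, after 14 h in 1 g/L glucose, and was infected with adenovirus. The control virus carried green fluorescent protein (GFP), the second wild-type Yap1 (Yap1 WT) and the third a short hairpin RNA against Yap1 (Yap1 shRNA), with 3 libraries each. Yap1 is the coactivator that TEAD factors use at the end of the Hippo pathway. A control hairpin, cells without virus and cells without the glucose and insulin treatment were not analysed here. The labels do not say whether replicates came from separate cultures, so p-values measure the spread between these libraries, which may be technical.

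Libraries held 14868180 to 15368473 assigned reads with GFP, 10960051 to 11497104 with Yap1 WT and 6103221 to 6357403 with Yap1 shRNA. Levels are read counts relative to the library total after TMM scaling (CPM) unless given as deposited TPM, which also account for transcript length. Yap1 itself stood at 195 ± 4.36 CPM with GFP (SD, n = 3), 664 ± 132 with Yap1 WT and 95.6 ± 0.360 with Yap1 shRNA. All 10 cardiomyocyte markers examined were lower than with GFP in both Yap1 groups. Their summed level was 28443 to 29379 CPM with GFP, 4839 to 7607 with Yap1 WT and 1823 to 1939 with Yap1 shRNA. The 8 fibroblast markers summed to 18573 to 19779, 12350 to 16734 and 7654 to 8381 CPM in the same order, most of it from the collagen genes Col1a1 and Col3a1. Singly, 3 were higher and 4 lower with Yap1 WT, and 1 was higher and 7 lower with Yap1 shRNA. The matrix gene Dcn was higher in both Yap1 groups (3.71-fold and 3.49-fold). Lum was 2.02-fold higher with Yap1 WT but was among the 7 lower with Yap1 shRNA. Of all genes tested, 32% were higher and 31.8% lower with Yap1 WT, and 39.2% and 39.1% with Yap1 shRNA. Of 7 smooth muscle and pericyte markers, the 6 tested summed to 8562 to 9069, 3618 to 4943 and 3293 to 3722 CPM. The 6 endothelial markers summed to 38.0 to 38.8, 50.5 to 56.4 and 62.5 to 66.1 CPM, and all 6 were higher with Yap1 shRNA, 3 higher and 1 lower with Yap1 WT. Of 7 macrophage markers, the 6 tested summed to 35.6 to 38.8, 49.3 to 52.1 and 23.8 to 34.1 CPM. The 5 epicardial markers summed to 58.6 to 69.1 CPM over all libraries, with 2 higher and 2 lower in each Yap1 group. None of the 3 erythroid markers in the table passed the count filter, so their levels are not given. These marker levels moved with the groups, and their part in the Zfp results was not tested. In bulk RNA, fewer cells of a type and less RNA per cell cannot be told apart.

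Zfp messages took a larger share of the reads in both Yap1 groups than with GFP. The 215 genes together held 0.474%, 0.462% and 0.452% of assigned reads in the GFP libraries. Their share was 0.541%, 0.568% and 0.557% with Yap1 WT, and 0.696%, 0.637% and 0.659% with Yap1 shRNA. Their summed TPM was 1915 to 1985 with GFP, 2329 to 2430 with Yap1 WT and 2989 to 3346 with Yap1 shRNA. The 3 groups did not overlap in either measure, and the Yap1 shRNA libraries were highest in both. A share is relative to all other RNA in the library, including the cardiomyocyte markers that fell.

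Levels of single members with GFP ran from 0.390 to 91.9 TPM. In GFP libraries the highest was Zfp207, which loads a checkpoint protein at the mitotic spindle, at 91.9 ± 0.333 TPM (n = 3). Zfp36 followed at 64.3 ± 3.55 TPM and Zfp385a, an RNA-binding protein, at 58.9 ± 3.25 TPM. The lowest were Zfp385b at 0.497 ± 0.0603 TPM, Zfp184 at 0.490 ± 0.114 TPM and Zfp819 at 0.390 ± 0.155 TPM, which did not differ beyond their spread. Counts limit the low genes most: the median of the lowest count over the 215 genes was 84.

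**Figure D1:**
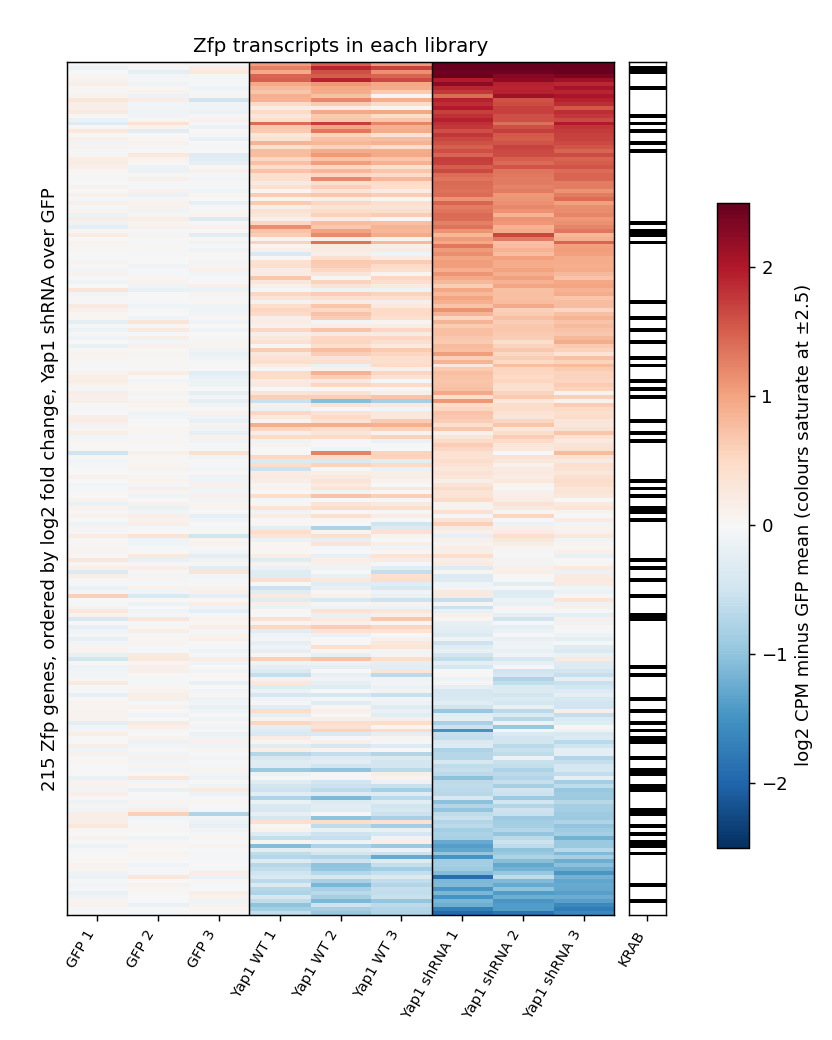
Each line is 1 of the 215 Zfp genes and each column 1 library, coloured by log2 CPM minus the gene's mean in GFP and ordered by the log2 fold change of Yap1 shRNA over GFP, with KRAB genes marked in black at the right. The Yap1 shRNA libraries show stronger colours than the Yap1 WT libraries in both directions, and KRAB genes lie along the whole order.

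With Yap1 WT, 79 of the 215 Zfp genes were higher than with GFP, 40 were lower and 96 did not pass. Calls rest on edgeR's quasi-likelihood test at a p under 0.05 after Benjamini-Hochberg adjustment across the 13708 tested genes (edgeR adjusted p below). Over all 13708 genes, 32% were higher and 31.8% lower, 63.8% in all, and of the Zfp genes 36.7% were higher and 18.6% lower, 55.3% in all. Over all 244 tested Zfp genes, 83 were higher and 45 lower, and the median log2 fold change was 0.13. The median log2 fold change of the 215 genes was 0.15, against 0.00 over all genes, and values ran from -0.92 to 1.70. Changes were small: 7 members rose at least 2-fold and 0 fell so far, while 9.19% and 7.39% of all genes did. Of the 11672 tested genes with at least 10 counts in every library, as for the members, 702 rose and 689 fell so far. The 3 libraries of each group did not overlap for 136 members (63.3%), against 70.7% of all genes.

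With Yap1 shRNA, 108 members were higher than with GFP, 55 were lower and 52 did not pass. The background was 39.2% higher and 39.1% lower, 78.3% in all, and 75.8% of the Zfp genes were called. Their median log2 fold change was 0.28, against -0.01 over all genes, and values ran from -1.79 to 3.28. At least 2-fold rises were seen in 47 members and falls in 16, beside 19.2% and 16.6% of all genes. Groups did not overlap for 166 members (77.2%), against 80.2% of all genes. The count minimum bears on this lean: of the 29 tested Zfp genes below it, 1 was higher and 12 were lower, with a median of -0.57. Over all 244 tested Zfp genes, 109 were higher and 67 lower, and the median was 0.13. Among the 11672 genes of any name with at least 10 counts in every library, 40.1% were higher and 40.2% lower. Of these 11672 genes, 1959 rose and 1693 fell at least 2-fold.

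Between Yap1 WT and Yap1 shRNA directly, 38 members were higher with Yap1 WT, 78 were lower and 99 did not pass, 54.0% called in all. All genes gave 31.2% higher and 31.3% lower, 62.5% in all. Of the 29 tested Zfp genes below the count minimum, 11 were higher and 1 was lower with Yap1 WT, so that over all 244 the counts were 49 and 79 and the median was -0.04. The members' median was -0.13 against 0.04 over all genes, but it was 0.01 with upper quartile scaling, which moved the all-gene median to 0.18 and left the members 0.16 below it. At least 2-fold differences were seen in 2 members higher and 20 lower with Yap1 WT, beside 6.39% and 7.86% of all genes. Of the 11672 genes with the members' count minimum, 507 were higher and 733 lower by that much. Groups did not overlap for 128 members (59.5%), against 66.1% of all genes. The split of called members moved from 32.8% higher (38 of 116) to 50% (67 of 134) with upper quartile scaling and to 48.1% (64 of 133) with library size alone. Calls over all tested genes moved too, from 4273 higher and 4289 lower to 5561 and 3467, and to 5344 and 3585. In Yap1 WT against GFP the members' share of higher calls was 66.4%, but 79.1% (106 of 134) with library size alone and 80.8% (97 of 120) on the TPM scale. All tested genes then gave 5637 higher and 3344 lower, and 5419 and 2894, instead of 4391 and 4360. In Yap1 shRNA against GFP the members' share was 66.3%, and 76.8% (119 of 155) on the TPM scale. There all tested genes gave 6294 higher and 4242 lower, instead of 5371 and 5362.

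**Figure D2:**
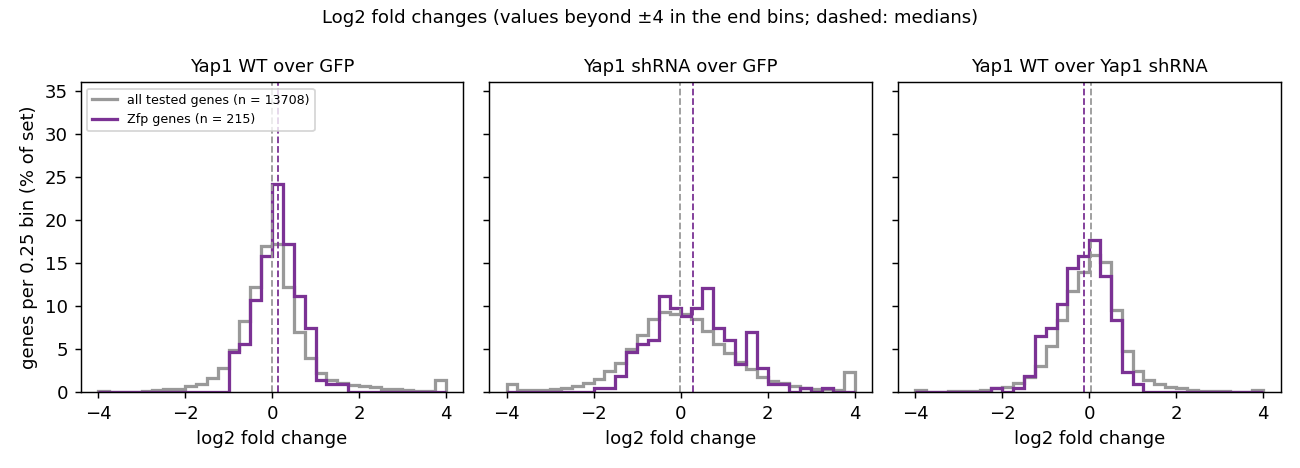
Histograms give the share of genes (%) in bins of 0.25 log2 fold change for the 215 Zfp genes (purple) and all 13708 tested genes (grey) in the 3 comparisons, with dashed lines at the medians. Zfp medians were 0.15, 0.28 and -0.13, and Zfp values stay between -2.06 and 3.28. With upper quartile scaling the last median became 0.01, beside an all-gene median of 0.18.

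The comparisons with GFP share the GFP libraries, so the values of a gene in both are given side by side below as descriptions. Opposite calls in them were made for Zfp862, Zfp704 and Zfp362. In the authors' deposited table, q-values under 0.05 marked 68 members higher and 31 lower with Yap1 WT, 95 and 45 with Yap1 shRNA, and 16 and 69 in Yap1 WT against Yap1 shRNA. Such calls over all genes of that table were not counted, so these counts have no background beside them.

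KRAB genes were compared with the rest of the members. The rest includes the 31 members without any domain annotation, whose KRAB status is not known. With Yap1 WT, 20 of 58 KRAB genes were higher and 10 lower (median 0.16), beside 59 and 30 of the 157 others (median 0.13). With Yap1 shRNA, 26 KRAB genes were higher and 16 lower (median 0.18), beside 82 and 39 of the others (median 0.30). In Yap1 WT against Yap1 shRNA, 10 were higher and 15 lower (median -0.08), beside 28 and 63 (median -0.15), where 31.2% and 31.3% of all genes were. These counts describe the classes, and the difference between classes was not tested. Of 19 corepressor genes, the partners of KRAB proteins, Yap1 WT had 9 higher and 6 lower (median 0.10), where 32% and 31.8% of all genes were. With Yap1 shRNA 10 were higher and 6 lower (median 0.20), where 39.2% and 39.1% of all genes were. The largest rise among them with Yap1 shRNA was that of Atf7ip, the stabilizing partner of the methyltransferase Setdb1, from 58.9 ± 2.76 to 233 ± 13.5 CPM. The largest fall was that of the DNA methyltransferase Dnmt3a, from 57.8 ± 1.64 to 34.6 ± 2.30 CPM.

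Among the 215 members the largest rise was that of Zfp518a (gene ID 309478, rn6 chr1:260152881-260178360, plus strand), a nuclear C2H2 protein. It stood at 10.8, 11.5 and 10.9 CPM with GFP, at 22.8, 31.3 and 23.2 with Yap1 WT and at 106, 109 and 109 with Yap1 shRNA. No 2 groups overlapped, and the Yap1 shRNA libraries differed from each other by less than those with Yap1 WT. It rose 2.33-fold with Yap1 WT (log2 fold change 1.22 ± 0.11 SE, edgeR adjusted p = 9.32e-07) and 9.74-fold with Yap1 shRNA (3.28 ± 0.11, edgeR adjusted p = 2.97e-11). Yap1 WT was 4.18-fold below Yap1 shRNA (-2.06 ± 0.10, edgeR adjusted p = 4.58e-09), the largest difference of any member in that comparison. In TPM it went from 2.04 ± 0.0351 with GFP to 23.1 ± 0.464 with Yap1 shRNA. Of the tested Zfp genes below the count minimum, Zfp711, named after its values were seen, rose further, from 18, 13 and 8 counts with GFP to 44, 63 and 60 with Yap1 WT and 98, 64 and 81 with Yap1 shRNA. Its log2 fold changes were 2.39 and 3.87 (edgeR adjusted p = 7.89e-06 and 1.89e-08). The ranks given here for rises and falls are ranks among the members.

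Zfp394 (gene ID 252860, rn6 chr12:11179323-11187362), which carries both a KRAB and a SCAN domain, had the next largest rise of the members with Yap1 shRNA. Its libraries read 6.59, 7.10 and 8.15 CPM with GFP, 17.4, 27.3 and 23.7 with Yap1 WT and 49.5, 50.9 and 48.3 with Yap1 shRNA. Again no groups overlapped. It rose 3.12-fold with Yap1 WT (1.64 ± 0.15, edgeR adjusted p = 6.96e-07) and 6.80-fold with Yap1 shRNA (2.76 ± 0.15, edgeR adjusted p = 1.38e-09).

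Zfp52, a KRAB gene (rn6 chr1:61389594-61426327), read 3.26, 2.77 and 3.87 CPM with GFP, 6.29, 10.0 and 7.27 with Yap1 WT and 17.7, 17.7 and 18.0 with Yap1 shRNA. It rose 2.37-fold with Yap1 WT (1.25 ± 0.18, edgeR adjusted p = 6.26e-05) and 5.38-fold with Yap1 shRNA (2.43 ± 0.18, edgeR adjusted p = 4.26e-08), with no overlap. Zfp347 (rn6 chr7:9974310-9990960) had the members' largest rise with Yap1 WT, from 9.84 ± 0.551 to 31.9 ± 4.88 CPM (3.24-fold, edgeR adjusted p = 5.03e-08), and stood at 42.7 ± 3.70 CPM with Yap1 shRNA. Zfp418, a KRAB gene reported to restrain cardiac hypertrophy in mice, read 3.68, 5.89 and 4.48 CPM with GFP. It read 12.2, 15.2 and 10.8 CPM with Yap1 WT and 16.3, 12 and 18.2 with Yap1 shRNA. Both Yap1 groups lay above GFP but overlapped each other, at 2.71-fold (edgeR adjusted p = 3.15e-05) and 3.30-fold (edgeR adjusted p = 4.53e-06). Zfp347 and Zfp418 had fractional expected counts in all 9 libraries, which means that reads were divided with other genes, so their levels are uncertain, and Zfp347 also overlaps a gene on the opposite strand.

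The members' largest falls were smaller than their largest rises, and the count minimum leaves out genes that are low with Yap1 shRNA. Zfp958 (rn6 chr12:5485691-5492254) was the member that fell furthest with Yap1 shRNA, from 45.0, 44.1 and 45.1 CPM with GFP to 29.2, 23.2 and 26.4 with Yap1 WT and 11.7, 12.5 and 14.7 with Yap1 shRNA. No groups overlapped. Its folds were 1.70 lower with Yap1 WT (-0.77 ± 0.09, edgeR adjusted p = 5.25e-06) and 3.46 lower with Yap1 shRNA (-1.79 ± 0.10, edgeR adjusted p = 3.84e-09). Zfp358 stood at 41.4 ± 1.37, 23.8 ± 1.14 and 13.6 ± 1.84 CPM in the same order, 1.74-fold and 3.06-fold below GFP (edgeR adjusted p = 1.44e-06 and 3.32e-09). The other large falls of members with Yap1 shRNA were those of Zfp955a, the KRAB gene Zfp251, Zfp637 and Zfp692, between 2.46-fold and 2.65-fold. Below the count minimum, Zfp763, Zfp90 and Zfp606 had log2 fold changes near that of Zfp958 with Yap1 shRNA, at -1.94, -1.93 and -1.89 (edgeR adjusted p = 0.000571, 5.24e-06 and 1.92e-05). These rest on few counts with Yap1 shRNA: 1, 9 and 6 for Zfp763, 11, 7 and 9 for Zfp90, and 10, 8 and 9 for Zfp606.

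With Yap1 WT the furthest fall of a member was 1.90-fold (-0.92 on the log2 scale), in the KRAB gene Zfp641, at 9.15 ± 0.656 CPM with GFP, 4.83 ± 0.543 with Yap1 WT and 4.75 ± 1.20 with Yap1 shRNA. Zfp606, a KRAB gene below the count minimum, stood at -0.97 (edgeR adjusted p = 0.00107). The Yap1 groups of Zfp641 overlapped (edgeR adjusted p = 0.917 between them, log2 difference 0.03 ± 0.19 SE). Zfp691 had a like set of levels, 12 ± 0.280, 6.47 ± 1.25 and 6.0 ± 1.46 CPM (edgeR adjusted p = 0.633 between the Yap1 groups, 0.11 ± 0.20). Zfp251, Zfp9, Zfp775 and Zfp704 fell 1.76-fold to 1.85-fold with Yap1 WT. The call on Zfp775 with Yap1 shRNA (1.64-fold lower) was lost on the TPM scale (limma adjusted p = 0.195, log2 fold change -0.21), and that on Zfp704 with Yap1 WT was lost there too (limma adjusted p = 0.0935, -0.42).

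**Figure D3:**
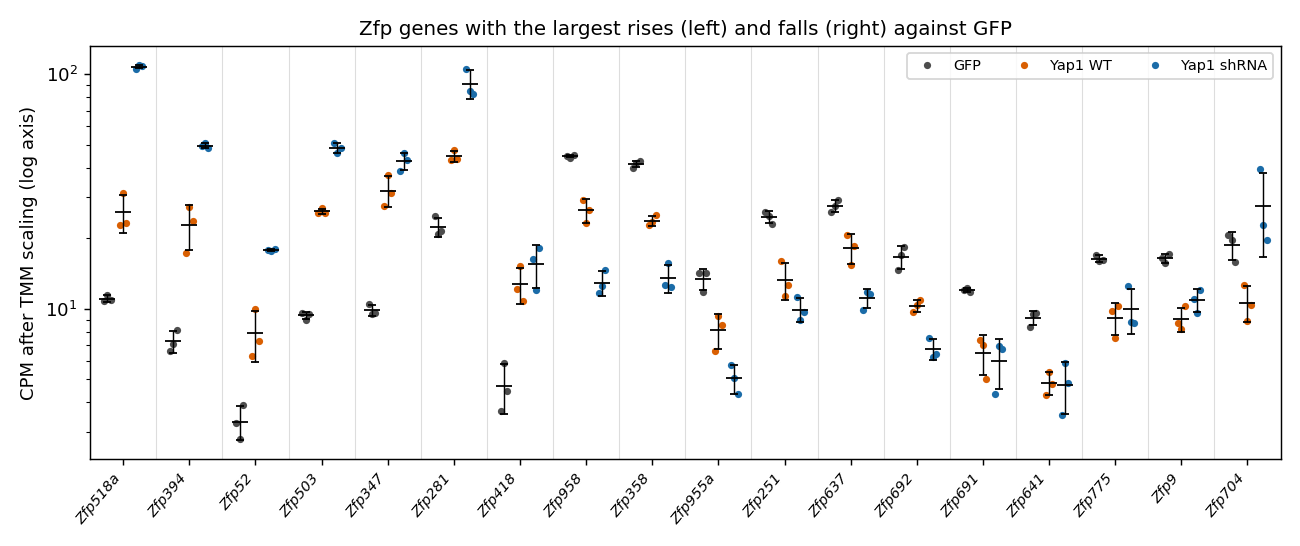
Points are CPM per library on a log axis for the members with the largest rises (left) and falls (right) against GFP, with the mean and SD of 3 libraries per group as bars. Zfp518a, Zfp394, Zfp52, Zfp503 and Zfp281 step up from GFP to Yap1 WT to Yap1 shRNA, Zfp958 and Zfp358 step down, and Zfp641 and Zfp691 have overlapping Yap1 groups.

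Members with opposite calls against GFP are given next, and how many of all tested genes had such calls was not counted. Zfp862 read 16.7, 14.5 and 13.6 CPM with GFP, 19.9, 20.4 and 19.3 with Yap1 WT and 8.95, 8.10 and 8.86 with Yap1 shRNA. Yap1 WT lay above GFP (0.42 ± 0.09, edgeR adjusted p = 0.00157), Yap1 shRNA below it (-0.79 ± 0.11, edgeR adjusted p = 2.95e-05), and the 2 Yap1 groups differed 2.30-fold (edgeR adjusted p = 1.11e-06), the members' largest difference in favour of Yap1 WT. Zfp958, Zfp426 and Zfp112 came next, 2.03-fold, 1.91-fold and 1.83-fold higher with Yap1 WT than with Yap1 shRNA. Zfp426, a KRAB gene, stood at 13.4 ± 0.212 CPM with GFP, 13.9 ± 1.34 with Yap1 WT and 7.32 ± 1.85 with Yap1 shRNA.

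Zfp704 went the other way, with 20.6, 19.7 and 15.8 CPM with GFP, 12.6, 8.89 and 10.4 with Yap1 WT and 39.6, 22.8 and 19.6 with Yap1 shRNA. The Yap1 shRNA libraries overlapped GFP, and replicate 1 stood far above the other 2. The call of a rise with Yap1 shRNA (0.55 ± 0.21, edgeR adjusted p = 0.0296) was lost without that library (0.18, edgeR adjusted p = 0.314) and without GFP replicate 3 (edgeR adjusted p = 0.108) or 2 (edgeR adjusted p = 0.0519). Zfp362 stood at 15.9 ± 0.563, 12.6 ± 0.641 and 19.8 ± 1.60 CPM with GFP, Yap1 WT and Yap1 shRNA. Its fall with Yap1 WT was lost with library size alone (edgeR adjusted p = 0.0671), when thinned (0.126) and on the TPM scale (limma adjusted p = 0.202), and its rise with Yap1 shRNA with upper quartile scaling (edgeR adjusted p = 0.100) and with no count filter (0.0547).

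Zfp24, a SCAN protein (rn6 chr18:15910159-15921773), was among the 4 members furthest below Yap1 shRNA in the Yap1 WT libraries, with Zfp518a, Zfp36l2 and Zfp704. It read 35.5, 34.8 and 34.0 CPM with GFP, 42.5, 52.1 and 44.6 with Yap1 WT and 119, 101 and 114 with Yap1 shRNA. The 3 groups did not overlap, and Yap1 WT was 2.40-fold below Yap1 shRNA (edgeR adjusted p = 4.56e-08).

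The CCCH proteins speed the decay of messages with AU-rich elements. Zfp36 (tristetraprolin, rn6 chr1:85380088-85382565) read 78.7, 80.0 and 87.7 CPM with GFP, 117, 116 and 122 with Yap1 WT and 101, 126 and 105 with Yap1 shRNA. Both Yap1 groups lay above GFP and overlapped each other. It rose 1.44-fold with Yap1 WT (edgeR adjusted p = 4.84e-05) and 1.34-fold with Yap1 shRNA (edgeR adjusted p = 0.000246). Zfp36l1 (rn6 chr6:103308032-103313074) read 89.2, 89.5 and 93.3 CPM with GFP, 122, 95.6 and 118 with Yap1 WT and 99.4, 104 and 97.4 with Yap1 shRNA. It rose 1.23-fold with Yap1 WT (edgeR adjusted p = 0.0042), and its 1.11-fold difference with Yap1 shRNA missed the threshold (edgeR adjusted p = 0.121, but 0.0248 without Yap1 WT replicate 2 and 0.0382 with only the 6 compared libraries, and limma adjusted p = 0.00265 on the TPM scale).

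Zfp36l2 (rn6 chr6:7417416-7423447) was low with GFP at 5.97, 5.07 and 5.03 CPM and with Yap1 WT at 6.04, 6.07 and 5.47, and stood at 21.1, 17.4 and 15.6 with Yap1 shRNA. The Yap1 shRNA libraries lay clear of the others, which overlapped. It rose 3.36-fold with Yap1 shRNA (1.75 ± 0.14, edgeR adjusted p = 9.35e-08), and Yap1 WT did not pass (0.13 ± 0.15, edgeR adjusted p = 0.460). The direct comparison put Yap1 WT 3.07-fold below Yap1 shRNA (edgeR adjusted p = 6.46e-07). Per length it remained the lowest of the 3 genes, at 4.77 ± 0.923 TPM with Yap1 shRNA beside 100 ± 9.58 for Zfp36 and 56.6 ± 2.15 for Zfp36l1. Its expected counts were fractional in all 9 libraries, so its level is uncertain.

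Partners and known targets of these proteins were also counted. Of 26 tested decay partners (the Ccr4-Not deadenylase, decapping, exosome and competing AU-rich binding proteins), Yap1 WT had 13 higher and 2 lower (median 0.15), beside 32% and 31.8% of all genes. Yap1 shRNA had 16 higher and 5 lower (median 0.48), beside 39.2% and 39.1% of all genes. Cnot4, a ubiquitin ligase of the Ccr4-Not complex, rose most of these with Yap1 shRNA, from 37.1 ± 0.507 to 128 ± 7.19 CPM, and the exonuclease Xrn1 fell most, from 41.1 ± 1.39 to 27.2 ± 4.71 CPM. Of 15 AU-rich messages known to be bound by Zfp36, 14 rose with Yap1 WT and 15 with Yap1 shRNA, beside 32% and 39.2% of all genes. Their medians were 4.60 and 3.34, against 0.00 and -0.01 over all genes. In Yap1 WT against Yap1 shRNA, 4 were higher and 6 lower (median -0.12), beside 31.2% and 31.3% of all genes. The list was chosen with earlier results of these data known. Many of the 15 are cytokines and early response genes. The medians against GFP were the same with Csf2, which had 0 counts in GFP, held at a floor of 3 counts for that group. Cxcl2 stood at 0.0684 ± 0.0680 CPM with GFP, 12.2 ± 2.54 with Yap1 WT and 10.1 ± 0.756 with Yap1 shRNA.

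Among 14 proteins that act on RNA, ribosomes, the spindle or ubiquitin, Yap1 WT had 4 higher and 0 lower (median 0.09), a share below the 63.8% of all genes called. With Yap1 shRNA 10 were higher and 2 lower (median 0.73), where 78.3% of all genes were called. In Yap1 WT against Yap1 shRNA, 1 was higher and 9 were lower, beside 31.2% and 31.3% of all genes. The split over all members in this comparison moved with the scaling. Zfp598, the ubiquitin ligase that marks collided ribosomes (rn6 chr10:14035114-14047100), read 90.6, 87.1 and 92.1 CPM with GFP, 106, 121 and 124 with Yap1 WT and 240, 222 and 217 with Yap1 shRNA. No groups overlapped, and its lowest count, 1275, was the largest of all members. It rose 1.3-fold with Yap1 WT (0.38 ± 0.07, edgeR adjusted p = 0.000268) and 2.52-fold with Yap1 shRNA (1.33 ± 0.07, edgeR adjusted p = 9.18e-10).

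Both members of this group that serve the large ribosomal subunit rose. Zfp622 read 17.0, 18.7 and 17.1 CPM with GFP, 28.2, 33.3 and 27.6 with Yap1 WT and 60.1, 67 and 65.5 with Yap1 shRNA. It rose 1.69-fold and 3.65-fold (edgeR adjusted p = 6.59e-06 and 4.50e-10), though its counts were fractional in all 9 libraries. Zfp593 read 17.6, 16.5 and 15.8 CPM with GFP, 21.7, 26.3 and 25.8 with Yap1 WT and 34.4, 31.7 and 31.7 with Yap1 shRNA. It rose 1.48-fold and 1.96-fold (edgeR adjusted p = 0.000112 and 5.24e-07), and no groups overlapped for either gene.

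The nucleolar protein Zfp330 stood at 34.0 ± 1.41 CPM with GFP, 36.2 ± 1.13 with Yap1 WT and 79.0 ± 9.12 with Yap1 shRNA, a 2.32-fold rise with the hairpin (edgeR adjusted p = 1.18e-08). Zfp326, which links splicing to transcription, went from 11.1 ± 2.20 and 10.3 ± 0.339 to 19.9 ± 1.51 CPM (1.79-fold with Yap1 shRNA, edgeR adjusted p = 6.63e-05). Zfp830, a splicing factor, read 15.2, 14.3 and 16.6 CPM with GFP and stood at 18.1 ± 1.39 with Yap1 WT and 28.1 ± 3.90 with Yap1 shRNA (1.83-fold, edgeR adjusted p = 8.93e-06). In these 3 genes Yap1 WT did not pass against GFP (edgeR adjusted p = 0.353, 0.476 and 0.0789), and each was lower with Yap1 WT than with Yap1 shRNA (edgeR adjusted p = 1.02e-07, 5.27e-05 and 0.000264). For Zfp830 the Yap1 WT difference of 0.23 did pass with library size alone (edgeR adjusted p = 0.00933), with only the 6 compared libraries (0.0433), without Yap1 shRNA replicate 1 (0.0356) and on the TPM scale (limma adjusted p = 0.00584), and for Zfp330 with library size alone (edgeR adjusted p = 0.0266) and on the TPM scale (limma adjusted p = 0.0174).

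The abundant spindle protein Zfp207 (rn6 chr10:67762970-67784857) read 130.2, 135 and 132 CPM with GFP, 134, 142 and 145 with Yap1 WT and 208, 192 and 208 with Yap1 shRNA. It rose 1.53-fold with Yap1 shRNA (edgeR adjusted p = 1.89e-07), and Yap1 WT did not pass (0.09 ± 0.05, edgeR adjusted p = 0.161) except with library size alone (0.22, edgeR adjusted p = 0.00278) and on the TPM scale (0.30, limma adjusted p = 0.000739). The ubiquitin ligase Zfp91 rose 1.31-fold with Yap1 shRNA (edgeR adjusted p = 9.08e-05), from 135 ± 4.15 to 178 ± 15.6 CPM. Zfp451, a SUMO ligase, rose 1.4-fold with Yap1 shRNA (edgeR adjusted p = 0.00125). Its call with Yap1 WT (1.27-fold, edgeR adjusted p = 0.0116) was lost without GFP replicate 2 (0.0504), GFP replicate 3 (0.0546) or Yap1 WT replicate 2 (0.0565).

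Zfp106 and Zfp346 were the 2 of this group that fell with Yap1 shRNA. Zfp106, an RNA-binding protein needed in motor neurons and muscle, read 181, 167 and 162 CPM with GFP and 142, 125 and 124 with Yap1 shRNA (1.31-fold lower, edgeR adjusted p = 0.000561), a call lost on the TPM scale (limma adjusted p = 0.143). Zfp346, which binds double-stranded RNA, was 1.18-fold lower (edgeR adjusted p = 0.0412), and this call was lost in 10 of the alternatives, among them without GFP replicate 1 (0.117), GFP replicate 2 (0.0687), Yap1 WT replicate 3 (0.0503), Yap1 shRNA replicate 1 (0.0524) or Yap1 shRNA replicate 3 (0.143).

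Zfp385a and Zfp385b are related RNA-binding genes. Zfp385a stood at 99.1 ± 5.29, 93.5 ± 4.56 and 88.5 ± 9.04 CPM and overlapped between all groups (edgeR adjusted p = 0.314 with Yap1 WT and 0.0604 with Yap1 shRNA). The latter passed in 7 alternatives, among them without Yap1 shRNA replicate 2 (edgeR adjusted p = 0.0199) or Yap1 WT replicate 1 (0.0295) or 2 (0.0491). Zfp385b was scarce, at 1.04, 0.880 and 1.02 CPM with GFP, 1.82, 1.62 and 1.03 with Yap1 WT and 2.56, 4.22 and 4.03 with Yap1 shRNA. Its rise with Yap1 shRNA was 3.64-fold (1.86 ± 0.29, edgeR adjusted p = 6.03e-05), and 1.05 on the log2(TPM + 1) scale. Zfp638, which silences unintegrated viral DNA, stood at 60.5 ± 2.77, 62.0 ± 0.95 and 64.2 ± 4.38 CPM with overlapping groups (edgeR adjusted p = 0.632 and 0.231 against GFP). Its log2 difference with Yap1 shRNA was 0.09 ± 0.06 SE, and it passed on the TPM scale (limma adjusted p = 0.0125), as did Yap1 WT with library size alone (edgeR adjusted p = 0.0302).

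**Figure D4:**
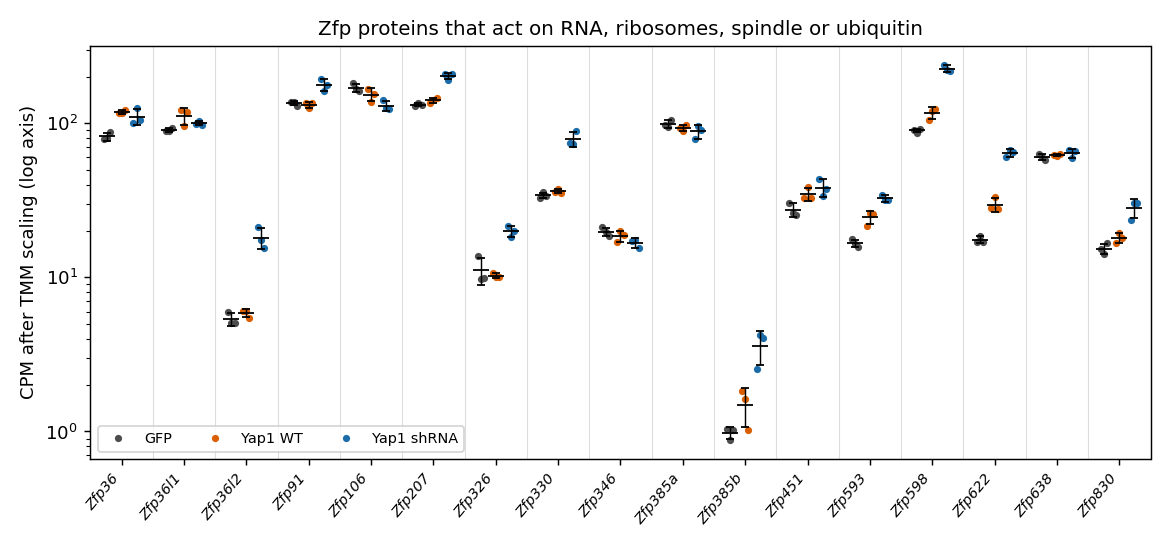
Points are CPM per library on a log axis for the CCCH genes and the 14 genes for proteins of RNA, ribosomes, spindle or ubiquitin, with the mean and SD of 3 libraries per group. Zfp36l2, Zfp598, Zfp622, Zfp330 and Zfp207 stand highest with Yap1 shRNA, whereas Zfp385a and Zfp638 overlap between groups.

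Of 24 DNA-binding regulators with known roles in development, the heart or chromatin, 21 were members. With Yap1 WT 12 were higher and 3 lower (median 0.41), beside 32% and 31.8% of all genes. With Yap1 shRNA 14 were higher and 4 lower (median 0.69), beside 39.2% and 39.1% of all genes. In Yap1 WT against Yap1 shRNA, 2 were higher and 10 lower (median -0.26), beside 31.2% and 31.3% of all genes. The split over all members in this comparison moved with the scaling. Zfp667, a KRAB gene induced in ischaemic heart, was no member, with 7, 6 and 10 counts with Yap1 shRNA, 35, 24 and 22 with GFP and 29, 17 and 20 with Yap1 WT. It did not pass against GFP (edgeR adjusted p = 0.980 and 0.151), and Zfp568 and Zfp809 were not analysed here.

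Zfp503 and Zfp703 belong to 1 family of corepressors that act in limb, neural and mammary development. Zfp503 (rn6 chr15:2374582-2378370) read 9.64, 9.0 and 9.51 CPM with GFP, 25.6, 26.8 and 25.7 with Yap1 WT and 51.0, 46.1 and 48.5 with Yap1 shRNA. It rose 2.77-fold with Yap1 WT (1.47 ± 0.08, edgeR adjusted p = 5.04e-09) and 5.17-fold with Yap1 shRNA (2.37 ± 0.08, edgeR adjusted p = 2.97e-11), and no groups overlapped. Zfp703 (rn6 chr16:69237857-69242028) read 13.9, 13.8 and 14.5 CPM with GFP, 14.7, 15.6 and 14.9 with Yap1 WT and 29.6, 34.6 and 26.6 with Yap1 shRNA. It rose 2.15-fold with Yap1 shRNA (edgeR adjusted p = 2.67e-07), while its difference with Yap1 WT was 0.10 ± 0.10 (edgeR adjusted p = 0.395).

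Zfp281 acts in the exit from pluripotency, and Zfp148 is its close relative. Zfp281 (rn6 chr13:53531080-53534399) read 24.8, 20.9 and 21.5 CPM with GFP, 43.1, 47.6 and 43.6 with Yap1 WT and 106, 85.2 and 82.1 with Yap1 shRNA. It rose 2.00-fold and 4.07-fold (edgeR adjusted p = 2.04e-06 and 8.75e-10) with no overlap. Zfp148 stood at 61.2 ± 2.96, 59.7 ± 2.70 and 73.8 ± 6.05 CPM, and its 1.21-fold rise with Yap1 shRNA (edgeR adjusted p = 0.00349) was lost with upper quartile scaling (0.107) and when libraries were thinned to equal depth (0.113).

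The paralogs Zfp423 and Zfp521 are partners of the Ebf factors. Zfp423 rose 1.86-fold with Yap1 WT and 2.23-fold with Yap1 shRNA (edgeR adjusted p = 0.00059 and 7.36e-05), from 4.16 ± 0.541 to 7.76 ± 1.37 and 9.27 ± 1.52 CPM. Zfp521 read 19.5, 19.4 and 17.7 CPM with GFP, 19.9, 16.5 and 16.6 with Yap1 WT and 10.4, 11.3 and 10.1 with Yap1 shRNA. It fell 1.78-fold with Yap1 shRNA (edgeR adjusted p = 1.47e-05), and Yap1 WT overlapped GFP (-0.09 ± 0.09, edgeR adjusted p = 0.411).

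Zfp384, Zfp407, Zfp516, Zfp335, Zfp410, Zfp143, Zfp322a and Zfp217 were higher in both Yap1 groups. Zfp384 went from 67.7 ± 3.51 CPM with GFP to 94.1 ± 7.50 and 168 ± 9.78 (1.39-fold and 2.49-fold, edgeR adjusted p = 5.43e-05 and 1.50e-09). Zfp407 rose 1.67-fold and 2.76-fold, Zfp516, a regulator of brown fat genes, 1.55-fold and 2.39-fold, and Zfp335 1.41-fold and 1.94-fold, with edgeR adjusted p at or below 5.88e-05. Zfp410, the activator of the chromatin remodeller Chd4, rose 1.33-fold and 1.85-fold (edgeR adjusted p = 0.000564 and 4.10e-07), and Chd4 itself stood at 273 ± 7.32, 288 ± 7.99 and 314 ± 24.5 CPM (log2 fold changes 0.08 and 0.20, edgeR adjusted p = 0.255 and 0.00759). Zfp143, which anchors promoter loops, and Zfp322a rose 1.35-fold to 1.68-fold in the 2 groups. Zfp217 rose 1.60-fold and 1.58-fold, and its Yap1 groups differed by 0.02 ± 0.08 (edgeR adjusted p = 0.845).

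Zfp260 and Zfp580 have been studied in heart or vessel cells. Zfp260, a partner of Gata4 in cardiomyocyte hypertrophy, stood at 54.0 ± 0.932 CPM with GFP, 60.7 ± 0.551 with Yap1 WT and 66.3 ± 2.58 with Yap1 shRNA. It rose 1.23-fold with Yap1 shRNA (edgeR adjusted p = 0.000276). Its 1.13-fold call with Yap1 WT (edgeR adjusted p = 0.0131) was lost without GFP replicate 2 (0.0561), without Yap1 WT replicate 1 (0.0534) and with no count filter (0.0944). Zfp580, described in endothelial and smooth muscle cells, read 17.2, 18.0 and 17.5 CPM with GFP, 10.7, 10.0 and 11.5 with Yap1 WT and 6.39, 8.77 and 7.25 with Yap1 shRNA. It fell 1.63-fold and 2.35-fold (edgeR adjusted p = 6.39e-05 and 7.58e-07) with no overlap.

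Zfp467 was 1.25-fold and 1.37-fold lower (edgeR adjusted p = 0.00837 and 0.00134), calls lost on the TPM scale (limma adjusted p = 0.303 and 0.107). Zfp219 was 1.12-fold and 1.19-fold lower in CPM (edgeR adjusted p = 0.0337 and 0.00361), but its TPM were 29.7 ± 1.43, 30.3 ± 2.19 and 30.3 ± 1.3, and both directions turned on that scale; its counts were fractional in all libraries and it overlaps other genes. Zfp91, Zfp346, Zfp467, Zfp593 and Zfp692 also overlap a gene on the opposite strand, and since no source used here gives the kit's strandedness, reads of such partners cannot be told apart. The Yap1 WT call on Zfp219 was also lost without GFP replicate 1 (0.0976), GFP replicate 2 (0.124) or Yap1 WT replicate 3 (0.147). Zfp57, the KRAB protein that guards imprinted genes, stood at 11.9 ± 0.636, 11.8 ± 1.25 and 11.1 ± 1.63 CPM, and Zfp536 at 4.85 ± 0.360, 4.43 ± 0.0343 and 4.58 ± 1.07. Zfp462 was spread widely, with 24.1, 15.0 and 15.6 CPM with Yap1 shRNA against 26.9, 22.7 and 20.2 with GFP (edgeR adjusted p = 0.0920). Among the alternatives the edgeR adjusted p was 0.00753 with a replicate block, 0.00726 without Yap1 shRNA replicate 1 and 0.0486 without Yap1 WT replicate 1.

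**Figure D5:**
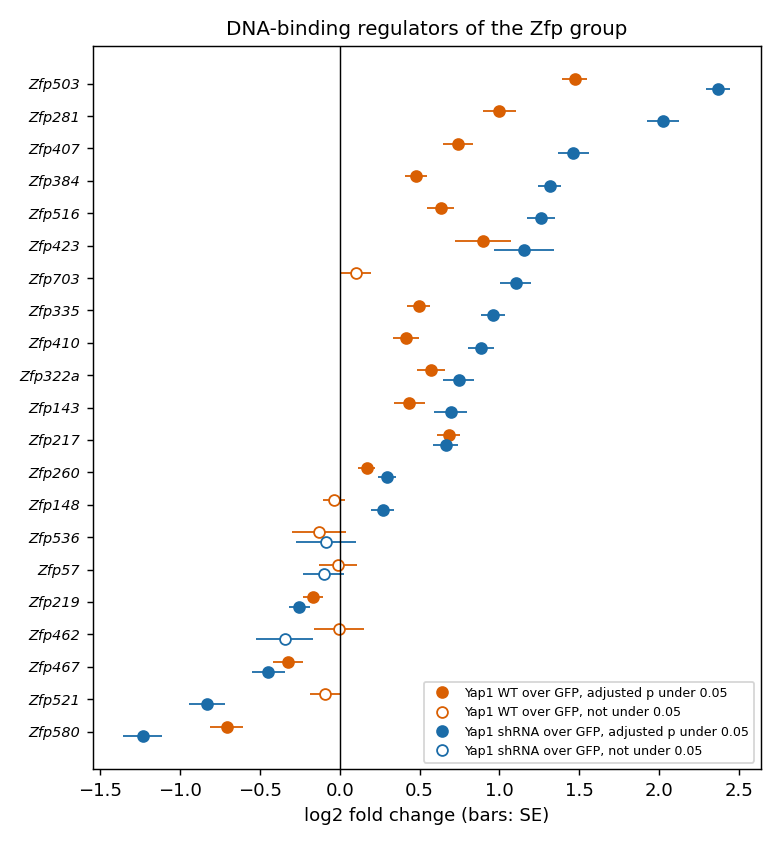
Log2 fold changes of the 21 DNA-binding regulators over GFP are plotted with their SE as bars for Yap1 WT (orange) and Yap1 shRNA (blue), filled where the edgeR adjusted p was under 0.05. Zfp503 and Zfp281 lie furthest right and Zfp580 furthest left; Zfp219 lies left of 0 here but at 0.02 and 0.03 on the log2(TPM + 1) scale.

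Promoters were read for the genes that the RefSeq table of the GRCr8 build holds, matched by gene ID, from 250 bases before to 50 after each start. They bear on Yap1 because TEAD factors bind the letters CATTCC. Of 174 members with a promoter, 19 (10.9%) held CATTCC on either strand, against 11.1% of the 10785 tested genes with a promoter and 13.9% of all 27457 promoters. Among the 90 members higher with Yap1 shRNA 12 held it (13.3%), and among the 44 lower 1 did (2.27%). The windows below show genes that rose in both Yap1 groups, Zfp418 and Zfp593 with the letters and Zfp281 without, and capitals mark CATTCC or its reverse complement GGAATG.
Zfp418: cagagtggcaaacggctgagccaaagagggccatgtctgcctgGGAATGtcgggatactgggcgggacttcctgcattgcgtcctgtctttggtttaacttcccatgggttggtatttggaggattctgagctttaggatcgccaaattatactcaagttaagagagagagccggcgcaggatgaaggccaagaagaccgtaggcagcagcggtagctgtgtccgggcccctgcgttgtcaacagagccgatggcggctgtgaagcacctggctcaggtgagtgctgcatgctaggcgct
Zfp593: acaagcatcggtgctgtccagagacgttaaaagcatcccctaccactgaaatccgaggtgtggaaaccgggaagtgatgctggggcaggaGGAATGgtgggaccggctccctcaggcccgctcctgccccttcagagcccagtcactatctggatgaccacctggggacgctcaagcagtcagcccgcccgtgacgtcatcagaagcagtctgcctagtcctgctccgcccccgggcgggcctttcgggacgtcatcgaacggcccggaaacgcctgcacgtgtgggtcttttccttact
Zfp281: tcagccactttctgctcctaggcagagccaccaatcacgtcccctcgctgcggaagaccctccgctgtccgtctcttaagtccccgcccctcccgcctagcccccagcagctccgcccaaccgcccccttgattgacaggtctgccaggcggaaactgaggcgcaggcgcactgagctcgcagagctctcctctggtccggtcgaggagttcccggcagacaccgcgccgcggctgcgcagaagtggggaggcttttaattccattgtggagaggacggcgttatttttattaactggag
The Zfp418 window is chr1:75614467-75614766 on the plus strand, that of Zfp593 is chr5:151748675-151748974 on the minus strand and that of Zfp281 is chr13:50647572-50647871 on the plus strand, all in GRCr8. The letters begin 207 bases before the start of Zfp418 and 160 before that of Zfp593. A match is no proof of binding, and its absence from this window says only that the letters are not there.

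Other motifs, searched on both strands, gave shares near those of all tested genes with 1 exception. The ETS letters CCGGAAG were in 19.5% of member promoters against 17.4%, the AP-1 letters TGANTCA in 6.32% against 4.84%, the E-box CACGTG in 7.47% against 9.30% and the CRE letters TGACGTCA in 2.87% against 3.14%. The SP1 letters GGGCGG were in 46.6% against 62.1%, beside a median GC content of 57.3% against 61%. These shares are descriptions without a test.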

How the data were processed

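Polyadenylated RNA of 9 libraries was sequenced on a BGISEQ-500, per the labels' protocols. The authors deposited expected counts per gene, with no normalization, and TPM scaled within each library. For 3 comparisons the authors deposited log2 fold changes, p-values and q-values of DESeq2, per the file headers. The submitters' processing notes name HISAT2, Bowtie2, RSEM 1.3.1, DESeq2 1.4.5 and the rat build rn6, without the role of each.

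Expected counts were rounded and all 9 libraries fitted by group in edgeR 4.0.16 under R 4.3.3, after TMM scaling. The filter filterByExpr kept 13708 genes, all 215 members among them. Each comparison used the two-sided quasi-likelihood F test with Benjamini-Hochberg adjustment, called at 0.05. Standard errors (SE) were taken as the absolute log2 fold change over the root of the F statistic. Precision follows depth, which was lowest with Yap1 shRNA. Alternatives were scaling by library size, RLE or upper quartile, limma 3.58.1 on log2(TPM + 1), DESeq2 1.42.0, other count filters (none, or 5 CPM in 3 libraries), the 6 compared libraries, a replicate block, thinning to equal depth, a minimum of 20 counts, all tested Zfp genes, removal of a length trend, and each library left out. The fit was also run on simulated counts in which few genes changed, which cannot speak to the choice of scaling here.

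The members and gene lists were chosen with earlier results of these data known. Named genes were those of the role groups, in each comparison with GFP the 6 largest called rises and falls without overlap, in Yap1 WT against Yap1 shRNA the 4 largest calls each way and opposite calls, and the 3 highest and 3 lowest in TPM. The genes nearest the count minimum were also named. Zfp711, Zfp763, Zfp90 and Zfp606, which miss it, were named after their values had been seen, as were Dcn and Lum. Domain classes came from the deposited annotation, since protein sequences were not used here. Motifs and gene clusters were searched after values had been seen. Replicate numbers paired libraries weakly if at all. Deviations from group means correlated between -0.03 and 0.09 for same-numbered libraries, and between -0.11 and 0.06 for differently numbered ones. Replicates of a group differed by more than sampling noise.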

Additional observations from a re-analysis of the deposited data

How the results depend on the processing

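Members called higher or lower kept to within 1.5 times their count under every alternative run, apart from the 4 counts given here. With library size alone the median log2 fold change of the members in Yap1 WT against GFP was 0.28, with no count filter 0.10 and on the TPM scale 0.24, where 23 members were lower instead of 40. In Yap1 shRNA against GFP it was 0.14 with upper quartile scaling, 0.20 with no count filter, 0.35 with a stricter filter, 0.39 on the TPM scale (36 lower instead of 55), 0.13 over all tested Zfp genes, 0.36 with a minimum of 20 counts and 0.21 with the length trend removed. In Yap1 WT against Yap1 shRNA it was 0.0125 with upper quartile scaling (67 higher instead of 38), -0.0115 with library size alone (64 higher) and -0.0433 over all tested Zfp genes. Library size alone moved the all-gene median by 0.14 in Yap1 WT against GFP and by 0.11 in Yap1 WT against Yap1 shRNA, and the TPM scale moved it by 0.13 and 0.17 in Yap1 WT and Yap1 shRNA against GFP. Relative to all genes, members then stood at 0.14, -0.16, 0.11 and 0.23. Upper quartile scaling moved it by -0.14 in Yap1 shRNA against GFP and by 0.14 in Yap1 WT against Yap1 shRNA, and members stood at 0.29 and -0.16 relative to it.

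Leaving out 1 library at a time gave medians of 0.11 to 0.17, 0.24 to 0.32 and -0.15 to -0.09 in the 3 comparisons. Members higher then numbered 72 to 81, 101 to 106 and 30 to 38, and members lower 35 to 42, 51 to 59 and 74 to 82. Replicate numbers paired the libraries weakly if at all. The fit with the replicate block gave 80 higher and 42 lower, 106 and 58, and 38 and 79, with medians of 0.15, 0.28 and -0.13. Zfp219 turned to 0.0241 (limma adjusted p = 0.783) and 0.0275 (limma adjusted p = 0.732) on the TPM scale. The cause of these shifts was not tested. Reads divided between similar genes limit 39 members whose expected counts were not whole in at least 1 library (18.1%, against 14.7% of all tested genes), and 34 members overlap another gene.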

Other observations

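Zfp genes in chromosomal clusters were set beside those that stand apart, with clusters defined after values had been seen as at least 3 members whose starts follow within 500 kb. The 16 clusters held 72 members, 32 of them with a KRAB domain (44.4%), beside 26 of the 143 others (18.2%), and 56 members lay on chromosome 1. The 31 members without any domain annotation count as lacking KRAB in these shares. With Yap1 shRNA 28 clustered genes were higher and 21 lower than with GFP (median log2 fold change -0.03), beside 80 and 34 outside clusters (median 0.36). Of all tested genes, 39.2% were higher and 39.1% lower. With Yap1 WT the counts were 25 and 10 in clusters (median 0.16) and 54 and 30 outside (median 0.13), where 32% and 31.8% of all genes were. The difference between clustered and other members was not tested.

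Clusters differed from each other in direction, and each held few genes to set against these all-gene shares. Zfp869, Zfp964 and Zfp868 (rn6 chr16:21438863-21525290) were all higher in both Yap1 groups than with GFP, by log2 fold changes of 0.72 to 1.96 with Yap1 shRNA. Zfp397, Zfp35 and Zfp24 (rn6 chr18:15856841-15921773) were all higher too, by 0.77 to 1.68. Expected counts of Zfp869 and Zfp868 were fractional in all 9 libraries, so their levels are uncertain and may not be independent. The authors' DESeq2 q-value for Zfp964 with Yap1 WT was 0.189. Of 5 members around Zfp580 (rn6 chr1:72338468-72474442), 4 were lower and 1 was higher with Yap1 shRNA. Of Zfp799, Zfp870, Zfp563 and Zfp955a (rn6 chr7:15066960-15789348), 2 were lower and 0 higher. The largest cluster, 10 genes on chromosome 4 (rn6 chr4:77489580-78258545), had 2 higher and 4 lower, and includes Zfp862 and Zfp775, whose calls with Yap1 WT were opposite.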
